A study of Homo sapiens with 6 samples.

Results

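Pyrimidine and deoxynucleotide synthesis was followed through 9 enzyme genes, CAD, DHODH, UMPS, CTPS1, TYMS, RRM1, RRM2, TK1 and DUT. They were picked by gene name, and earlier results of these data were known when the list was made. All 9 were found among the 19491 genes listed in the deposited tables, and all 9 had enough reads to be compared. PC-3, an established line of prostate cancer cells, received a glutamine transport inhibitor or none for 48 h before total RNA was sequenced. The control cells carry no treatment on their label and received the water vehicle. The treated cells received 1 mM GPNA (L-γ-glutamyl-p-nitroanilide) or 10 mM BenSer (benzylserine), compounds used against ASCT2 (SLC1A5), a transporter that brings glutamine into the cell. The doses of these compounds differ, so compound and dose cannot be told apart when the treated cells are set against each other. All groups are 1 cell line in culture, and the libraries labelled 1 and 2 of each group were analysed.

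Pyrimidine nucleotides are the uracil, cytosine and thymine building blocks of RNA and DNA. The de novo route assembles the ring from glutamine nitrogen, bicarbonate and aspartate and ends in UMP, from which UTP and CTP are made. Ribonucleotide reductase then turns ribonucleotides into deoxynucleotides, thymidylate synthase supplies the thymine, and salvage kinases recover nucleosides from outside the cell or from DNA turnover. Transcripts of ribonucleotide reductase, thymidylate synthase and thymidine kinase are known to be most abundant around S phase, the part of the cell cycle in which DNA is copied, and E2F factors and factors bound at CCAAT boxes or CHR elements are known regulators of such genes.

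Levels are given in CPM, the reads of a gene scaled to the total of its library. The library totals were 23077986 to 32178154 reads, of which 51.6% to 52.7% fell on listed genes. Within a group the libraries were nearly as alike as read sampling allows (chi-square divided by its degrees of freedom, 1.05 to 1.06, against 5.50 to 20.7 for libraries of different groups). Each group thus counts as 1 sample, no test of a treatment was possible with the labelled libraries, and the differences reported have no replicate check. The labels do not say whether the libraries came from separate cultures. Differences between groups are differences in log2(mean CPM + 1), and each is followed in brackets by its 95% interval, which covers counting error only (exact Clopper-Pearson limits of the reads of both libraries together). Of the marker genes of PC-3 cells, KRT8, KRT18, VIM and CD44 were present at 108 to 292 CPM in the control libraries, and KLK3, the gene of prostate-specific antigen, was not among the listed genes.

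Promoter stretches are shown because RRM2, TYMS and TK1 are S phase genes, whose promoters are known for E2F sites and CCAAT boxes. The stretches are the 150 bases before an annotated start in RefSeq (GRCh38.p14). Where a gene has several starts, the window with the most motif matches was taken. They are shown for the members with the largest BenSer differences (RRM2, TYMS and TK1), for UMPS, which had the smallest, and for DUT. CTPS1 and RRM1, which differed more with BenSer than DUT, are not shown. They lie at chr2:10122589-10122738 (RRM2, plus strand), chr18:657503-657652 (TYMS, plus strand), chr17:78187053-78187202 (TK1, minus strand), chr15:48332047-48332196 (DUT, plus strand) and chr3:124730302-124730451 (UMPS, plus strand). Each is written 5′ to 3′ on the strand of the gene. Capitals mark matches, on either strand, to the E2F core (TTTCCCGC, TTTCGCGC, TTTGGCGC or TTTGCCGC), the CCAAT box (CCAAT) or the CHR element (TTTGAA), and none of the matches shown overlaps another.
RRM2: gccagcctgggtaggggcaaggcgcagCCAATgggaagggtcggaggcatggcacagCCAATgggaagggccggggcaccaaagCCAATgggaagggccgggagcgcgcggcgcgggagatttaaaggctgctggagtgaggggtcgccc
TYMS: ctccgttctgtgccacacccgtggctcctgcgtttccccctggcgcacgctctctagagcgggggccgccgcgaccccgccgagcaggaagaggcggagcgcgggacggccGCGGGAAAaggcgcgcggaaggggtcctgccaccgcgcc
TK1: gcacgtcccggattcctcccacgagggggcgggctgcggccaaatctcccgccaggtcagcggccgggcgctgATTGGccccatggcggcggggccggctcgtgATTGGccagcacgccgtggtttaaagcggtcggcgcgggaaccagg
DUT: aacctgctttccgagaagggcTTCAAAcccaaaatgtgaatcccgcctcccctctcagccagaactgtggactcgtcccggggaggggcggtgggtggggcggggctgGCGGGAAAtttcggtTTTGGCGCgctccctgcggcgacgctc
UMPS: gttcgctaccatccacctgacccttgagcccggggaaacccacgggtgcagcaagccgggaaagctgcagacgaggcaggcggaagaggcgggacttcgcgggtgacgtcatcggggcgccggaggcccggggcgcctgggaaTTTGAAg

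In RRM2, CCAAT matches began 123, 93 and 66 bases before the start. In TK1, reverse CCAAT matches (ATTGG) began 77 and 46 bases before it. TYMS held a reverse E2F core (GCGGGAAA) 39 bases before its start, and DUT held the same letters 42 bases and a forward core (TTTGGCGC) 27 bases before its most downstream start. DUT also held reverse CHR letters (TTCAAA) 129 bases before that start and, upstream of the stretch shown, 214 bases before it. UMPS held only CHR letters, 7 bases before its start and again 207 bases before it, upstream of the stretch shown. Among the members not shown, DHODH held CCAAT 22 bases and CAD its reverse 250 bases before the start. RRM1 held CCAAT 28 bases and reverse CHR letters 199 bases before its start. Whether matches go with the size of the differences was not tested. Over windows from 250 bases before to 50 after each start, the 9 genes had 15 windows in the RefSeq table. E2F letters were in 2 of the 15 windows, against 3.31% of all 35116 windows. CCAAT was in 6 of the 15 windows, in 5 genes, against 34.6% of all windows, and CHR letters were in 3 of the 15, against 15.2%. These are matches of letters, the data hold no measurement of binding, and the windows of CTPS1 held none of the 3 motifs.

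**Figure D1:**
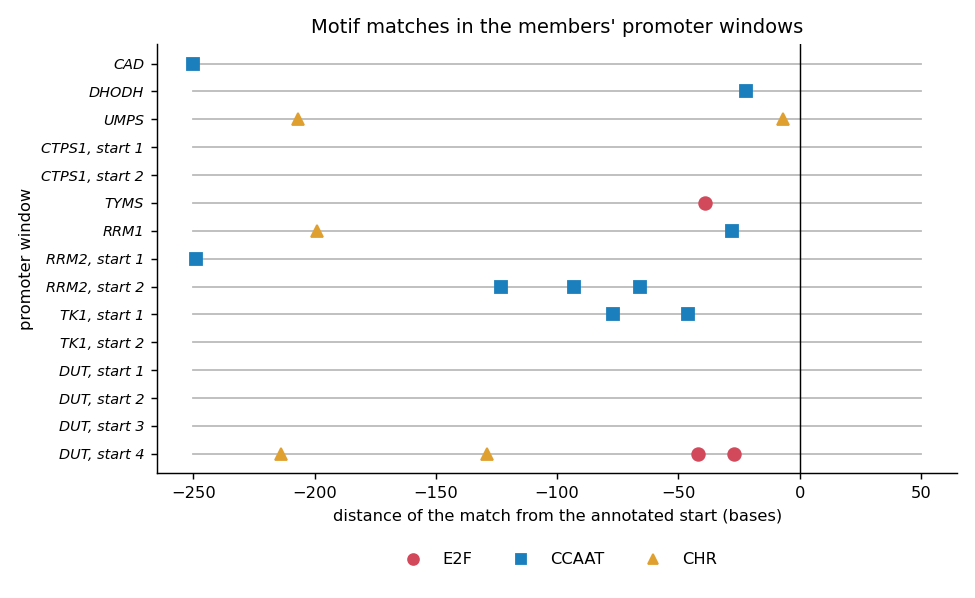
Position of each motif match (x axis, bases from the annotated start; y axis, the 15 promoter windows of the 9 genes). Circles are E2F cores, squares CCAAT boxes and triangles CHR elements; E2F cores appear only in TYMS and in the most downstream DUT window, within 42 bases of the start.

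CAD (chr2:27440237-27466811, GRCh37) encodes the trifunctional protein that opens the de novo route, with the carbamoyl-phosphate synthetase that takes nitrogen from glutamine. Its level was 71.5 and 78.8 CPM in the control libraries, 54.2 and 58.3 CPM with GPNA, and 53.0 and 52.8 CPM with BenSer. Both treatments lay below both control libraries, and the control libraries themselves differed by 9.78%, the only 1 of 27 pairs of libraries of these genes that differed beyond its counting interval. DHODH (chr16:72042487-72061563), the mitochondrial enzyme that oxidises dihydroorotate, was at 9.60 and 7.89 CPM in control cells, 9.07 and 8.56 CPM with GPNA, and 7.09 and 6.32 CPM with BenSer. GPNA overlapped the control for DHODH, whereas both BenSer libraries were lower. UMPS (chr3:124449280-124468120), which completes UMP, was at 12.5 and 12.4 CPM in control cells, 11.0 and 12.6 CPM with GPNA, and 9.91 and 11.4 CPM with BenSer. The GPNA libraries of UMPS lay on both sides of the control, and the BenSer libraries were below the control but overlapped those of GPNA. CTPS1 (chr1:41444972-41478237), which aminates UTP to CTP with glutamine as donor, stepped down across the groups, from 55.2 and 50.9 CPM in the control to 45.1 and 43.8 CPM with GPNA and 31.9 and 34.0 CPM with BenSer.

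The large subunit of ribonucleotide reductase, RRM1 (chr11:4115937-4160162), was at 79.0 and 79.6 CPM in control cells, 66.0 and 70.2 CPM with GPNA, and 49.6 and 50.8 CPM with BenSer. Its radical-bearing small subunit RRM2 (chr2:10260825-10351851) was at 162 and 164 CPM in control cells, 129 and 135 CPM with GPNA, and 91.7 and 90.7 CPM with BenSer. For both subunits the 3 groups were apart, in the order control, GPNA, BenSer. The same order without overlap was found for thymidylate synthase, TYMS (chr18:657653-673578), at 14.1 and 14.4 CPM, then 12.2 and 10.9 CPM, then 7.46 and 7.92 CPM. DUT (chr15:48623208-48635570), which hydrolyses dUTP to the dUMP that TYMS methylates and so keeps uracil out of DNA, was at 10.4 and 10.7 CPM in control cells, 9.57 and 8.997 CPM with GPNA, and 6.65 and 6.29 CPM with BenSer. TK1 (chr17:76170172-76183314), the cytosolic kinase that salvages thymidine, was at 60.5 and 59.8 CPM in control cells, 48.8 and 47.9 CPM with GPNA, and 34.6 and 35.6 CPM with BenSer. DUT and TK1 thus also had 3 groups that did not overlap. In RNA from whole cultures, fewer cells that express a gene and less of its RNA per cell cannot be told apart.

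**Figure D2:**
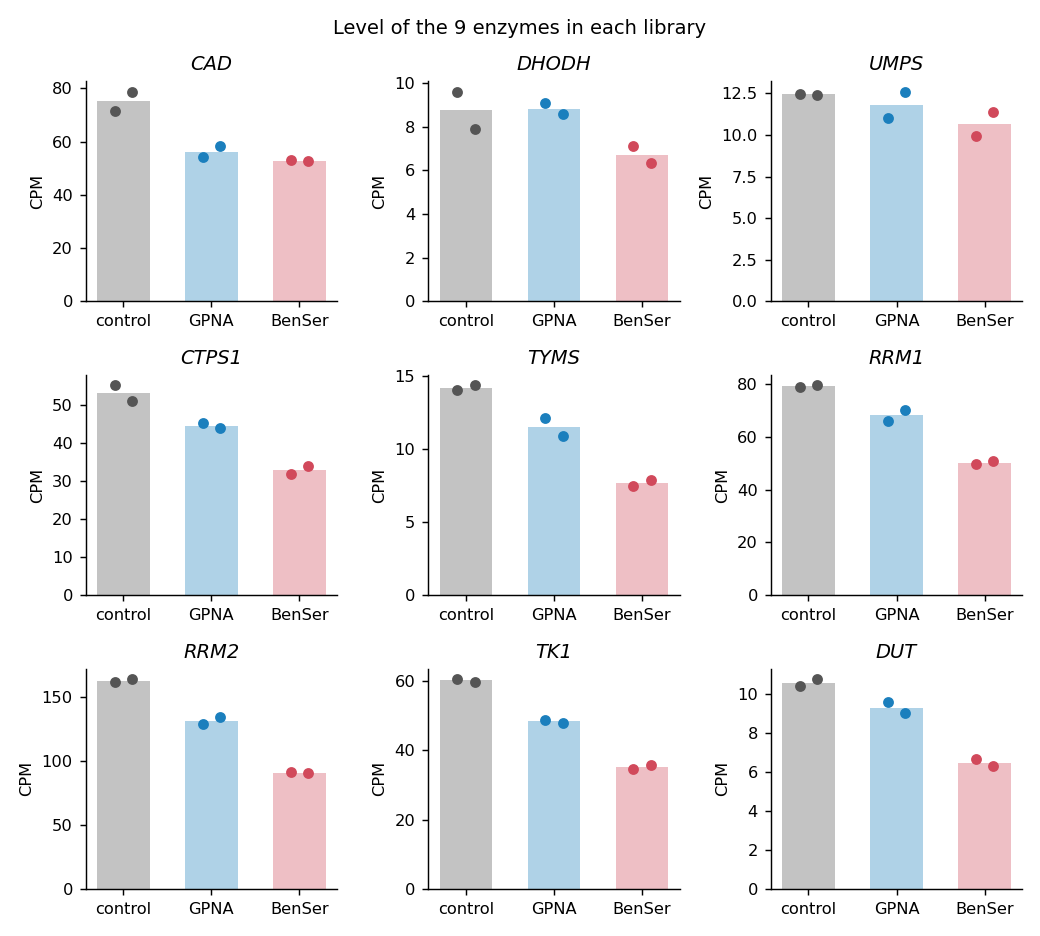
Level of each of the 9 enzymes (y axis, CPM from 0, a scale of its own per gene) in control, GPNA and BenSer cells. Points are the libraries labelled 1 and 2 and bars their mean; 6 genes (CTPS1, TYMS, RRM1, RRM2, TK1 and DUT) step down from control to GPNA to BenSer with no overlap between neighbouring groups, as CAD does with a small last step.

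Divided by the length of the canonical transcript, RRM2 and TK1 were the most abundant of the 9 in the control, at 50.1 and 42.0 CPM per kilobase. RRM1 followed at 25.2, CTPS1 at 18.7, CAD at 10.3, TYMS at 8.82 and DUT at 4.93 CPM per kilobase. UMPS and DHODH were the lowest, both at 1.87 CPM per kilobase. Reads behind these levels ranged from 405 for DHODH to 7557 for RRM2 in the control, so the intervals of DHODH, DUT, UMPS and TYMS are the widest. With BenSer the order was the same apart from DHODH and UMPS, at 1.44 and 1.60 CPM per kilobase, and RRM2 and TK1 were at 28.0 and 24.5.

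The first comparison asked which of these enzymes differed in cells given GPNA. Counting intervals lay below 0 for 7 of the 9 (20.1% of the 18828 genes compared) and above 0 for none (9.78%), and the GPNA libraries lay entirely below the control libraries for the same 7 (34.4%) and entirely above them for none (22.4%). No member was 1.5-fold lower (0.0637%, or 12 genes, which became 23 to 27 without any single library) or higher (0.34%). The median difference of the 9 was -0.25, beside -0.028 for all genes. CAD differed most, by -0.41 (-0.48 to -0.34), a mean level 25.2% below the control. Among 9931 genes at 5 CPM or more, it stood at rank 64 from the lowest. TK1 and RRM2 followed at -0.31 (-0.39 to -0.23) and -0.31 (-0.35 to -0.26), or 19.5% and 19.2% below the control. TYMS was at -0.28 (-0.43 to -0.13), CTPS1 at -0.25 (-0.33 to -0.17) and RRM1 at -0.22 (-0.28 to -0.15). DUT, at -0.17 (-0.34 to -0.00024), reached the edge of its counting error. UMPS at -0.069 (-0.22 to 0.085) and DHODH at 0.011 (-0.17 to 0.19) were not distinguishable from the control at this depth, and their intervals reach down to -0.22 and -0.17.

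The BenSer comparison gave the larger differences. All 9 intervals lay below 0 (25.8% of the 18976 genes compared), all 9 genes had both BenSer libraries below both control libraries (37.5%), and 6 were at least 1.5-fold lower (1.58%), while no member was higher on any of these counts (18.2%, 28.5% and 1.96%). The median of the 9 was -0.65, beside -0.028 for all genes. The largest differences were those of RRM2 at -0.83 (-0.88 to -0.78), TYMS at -0.81 (-0.96 to -0.66) and TK1 at -0.76 (-0.84 to -0.68). These 3 had mean levels 44.1%, 46.0% and 41.6% below the control and stood at ranks 26, 31 and 46 from the lowest of 9934 genes at 5 CPM or more. CTPS1 was at -0.67 (-0.75 to -0.59), RRM1 at -0.65 (-0.72 to -0.58) and DUT at -0.63 (-0.80 to -0.46). CAD, DHODH and UMPS, the 3 enzymes up to UMP, did not reach 1.5-fold, at -0.50 (-0.57 to -0.43), -0.34 (-0.51 to -0.16) and -0.21 (-0.36 to -0.058). Within ribonucleotide reductase, the RRM2 difference was larger than that of RRM1. RRM2 took 67.3% of the reads of the pair in the control (66.4% to 68.2%), 65.9% with GPNA (65.0% to 66.8%) and 64.5% with BenSer (63.5% to 65.5%), a share that needs no scaling between libraries.

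**Figure D3:**
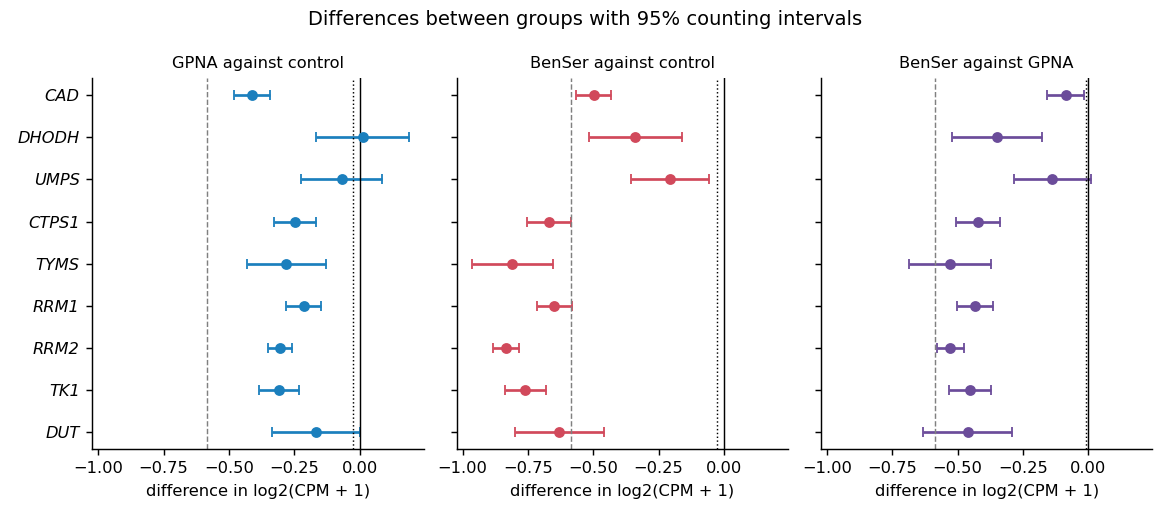
Difference in log2(mean CPM + 1) for each enzyme (x axis) in GPNA against control, BenSer against control and BenSer against GPNA. Bars are 95% counting intervals, the dashed line marks 1.5-fold lower and the dotted line the median of all genes; with BenSer 6 genes lie left of the dashed line, with GPNA none.

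Set directly against GPNA, which leaves the shared control out, BenSer was lower for 8 of 9 members by library (33.6% of the 19056 genes compared) and by counting interval (20.7%), and none was higher (31.7% and 21.2%). UMPS overlapped, at -0.14 (-0.28 to 0.0091). No member was 1.5-fold lower (0.813%) or higher (1.05%), and the median was -0.43, beside -0.0093 for all genes. RRM2 and TYMS differed by -0.53 each (-0.58 to -0.48 and -0.69 to -0.37), and DUT, TK1, RRM1 and CTPS1 by -0.46 to -0.42. DHODH was at -0.35 (-0.52 to -0.18). CAD had the smallest of the 9 differences, at -0.086 (-0.16 to -0.015), with mean levels of 56.2 CPM with GPNA and 52.9 CPM with BenSer. With the libraries entered as 2 samples each, which compares libraries and not treatments, limma called 6 members lower with GPNA (14.4% of 19216 genes), 9 with BenSer (21.5%) and 7 with BenSer against GPNA (16.3%), and none higher (6.47%, 15.3% and 17.1%). On the recovered reads, edgeR called 6, 8 and 7 members lower (8.87%, 17.8% and 16.2%) and none higher (7.62%, 18.7% and 18.3%). At least 1.2-fold lower were 4 members with GPNA (5.86%), 8 with BenSer (15%) and 7 with BenSer against GPNA (11%), and none was 1.2-fold higher (5.18%, 10.4% and 10.5%).

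CTPS1, RRM2 and TK1 have counterparts of like function, and none of these counterparts was lower than the control by its counting interval. CTPS2, the second CTP synthase, was at 26.8 and 24.7 CPM in control cells, 28.1 and 27.3 CPM with GPNA, and 29.2 and 29.0 CPM with BenSer. RRM2B, the small reductase subunit known for supplying deoxynucleotides outside S phase, was at 46.8 and 46.4 CPM, then 49.5 and 49.0 CPM, then 49.9 and 45.7 CPM. TK2, the mitochondrial thymidine kinase, was at 4.004 and 4.20 CPM, then 4.81 and 4.95 CPM, then 5.94 and 7.29 CPM. All GPNA libraries of the 3 lay above the control (22.4% of all genes compared), and so did those of BenSer (28.5%) except for RRM2B, which overlapped. With GPNA, however, the counting intervals of all 3 included 0. They were -0.0071 to 0.21 for CTPS2, -0.0050 to 0.16 for RRM2B and -0.023 to 0.43 for TK2. The BenSer intervals of CTPS2 (0.067 to 0.27) and TK2 (0.37 to 0.78) lay above 0, and that of RRM2B included 0. Of the reads on RRM2 and RRM2B together, RRM2 held 77.8% in the control (76.9% to 78.6%), 72.8% with GPNA (71.9% to 73.7%) and 65.6% with BenSer (64.6% to 66.6%). CTPS1 held 67.3% of the CTP synthase reads in the control (65.7% to 68.8%), 61.6% with GPNA (60.0% to 63.2%) and 53.1% with BenSer (51.6% to 54.7%). For TK1 against TK2 the shares were 93.6% (92.7% to 94.5%), 90.8% (89.7% to 91.9%) and 84.1% (82.7% to 85.5%). In each pair the intervals of the 3 groups did not overlap, and the share of the member enzyme was lower with both compounds and lowest with BenSer.

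**Figure D4:**
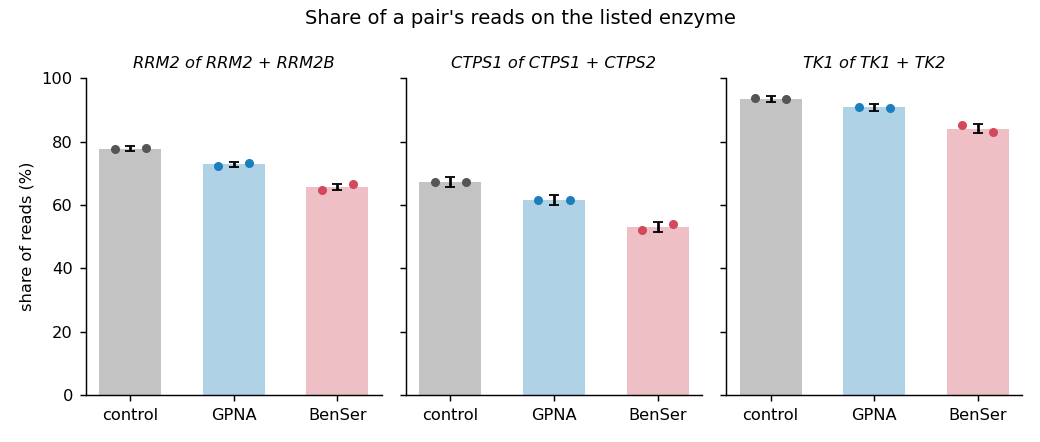
Share of a pair's reads on the member enzyme (y axis, percent from 0 to 100) for RRM2 with RRM2B, CTPS1 with CTPS2 and TK1 with TK2. Bars are merged reads, error bars 95% exact binomial intervals for counting error and points the libraries; RRM2 goes from 77.8% in the control to 65.6% with BenSer.

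Other genes of pyrimidine and deoxynucleotide metabolism were mixed. Of 41 such genes 37 were listed, and with GPNA 13 had intervals below 0 (20.1% of all genes compared) and 8 above (9.78%), 1 was at least 1.5-fold higher (0.34%) and none lower (0.0637%), with a median of -0.029 that was 0.0080 with TMM scaling. With BenSer 20 intervals were below 0 (25.8%) and 10 above (18.2%), and 3 genes were at least 1.5-fold higher (1.96%), with a median of -0.21. The count of these genes at least 1.5-fold lower with BenSer is not reported here. SHMT1 and MTHFD1, which feed one-carbon units to the making of thymidylate, were at -0.36 and -0.47 with BenSer, and the mitochondrial SHMT2 at 0.30.

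Among the kinases, the nucleoside diphosphate kinase NME1 was at 112 CPM in both control libraries, 92.2 and 92.3 CPM with GPNA, and 77.1 and 75.1 CPM with BenSer, or -0.28 (-0.33 to -0.22) and -0.55 (-0.61 to -0.50). NME6, a relative of NME1, was the lowest with GPNA at -0.32 (-0.49 to -0.15) and stood at -0.10 (-0.26 to 0.053) with BenSer. CMPK2, a mitochondrial UMP-CMP kinase known as an interferon-inducible gene, went the other way, from 3.49 and 3.47 CPM in the control to 8.88 and 8.997 CPM with GPNA and 16.3 and 14.2 CPM with BenSer. Its differences, 1.15 (0.94 to 1.36) and 1.86 (1.67 to 2.06), were the highest of the 37 genes. Thymidylate kinase DTYMK, the step after TYMS and TK1, was at -0.27 (-0.40 to -0.15) and -0.54 (-0.66 to -0.41).

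With GPNA, 4 of the 9 hydrolases or nucleotidases and 2 of the 3 listed breakdown enzymes had intervals above 0 (9.78% of all genes). Below 0 with GPNA were 1 and 0 of them (20.1%). With BenSer, 4 of the 9 and 1 of the 3 were above 0 (18.2%), and 1 of the 3 breakdown enzymes was below 0 (25.8%). SAMHD1, which hydrolyses deoxynucleoside triphosphates, was at 40.8 and 41.2 CPM in control cells, 51.2 and 53.2 CPM with GPNA, and 67.3 and 64.7 CPM with BenSer, or 0.34 (0.26 to 0.42) and 0.67 (0.60 to 0.75). The groups of SAMHD1 did not overlap and ran in the reverse order of RRM2. NT5E, the ecto-nucleotidase of the cell surface, was at 33.5 and 30.8 CPM in control cells, 42.4 and 40.3 CPM with GPNA, and 42.6 and 42.9 CPM with BenSer, or 0.35 (0.26 to 0.45) and 0.40 (0.31 to 0.49). UPP1, which cleaves uridine, was at 27.4 and 29.2 CPM, then 29.7 and 32.5 CPM, then 44.3 and 42.7 CPM, and was 0.60 (0.51 to 0.70) higher with BenSer, under the 1.5-fold mark without control replicate 1 (0.56) or BenSer replicate 1 (0.58). Not every nucleotidase or hydrolase was higher. With BenSer 5 of the 9 in this group had intervals below 0 (25.8% of all genes compared) and 4 above (18.2%). NUDT1, which removes oxidised nucleotides, was at 8.57 and 10.1 CPM with GPNA and at 5.66 and 5.76 CPM with BenSer. Set directly against GPNA, the BenSer cells were at -0.63 (-0.80 to -0.45) for NUDT1 (-0.51 without GPNA replicate 2), 0.71 (0.56 to 0.86) for CMPK2 and 0.47 (0.39 to 0.56) for UPP1. Of the 8 salvage genes besides TK1, 3 intervals were below 0 (20.1% of all genes compared) and none above (9.78%) with GPNA. With BenSer 5 were below (25.8%) and 1 above (18.2%), the 1 being TK2.

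**Figure D5:**
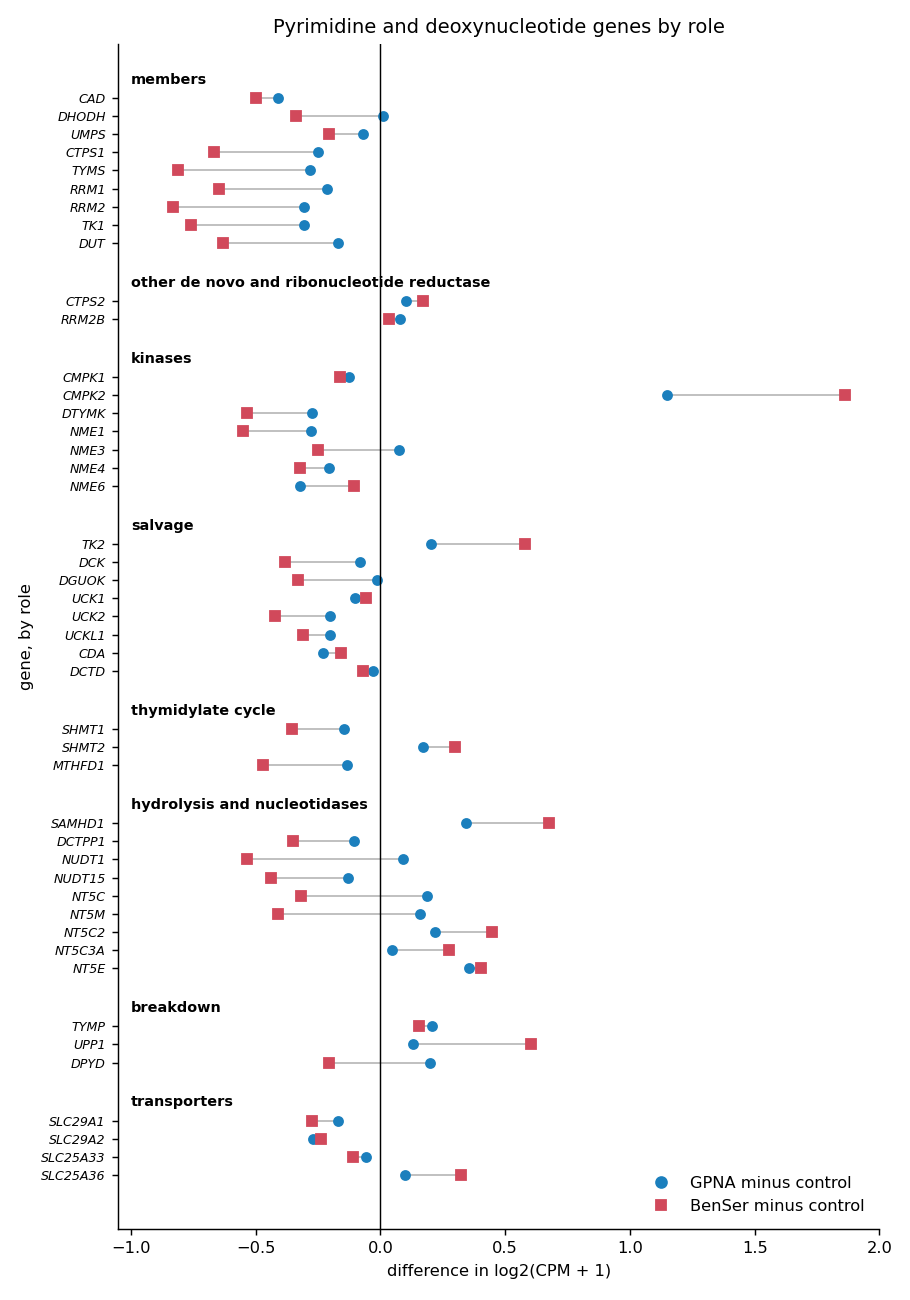
Difference in log2(mean CPM + 1) from the control (x axis) for the 9 members and the other listed genes but 1, grouped by role (y axis). Circles are GPNA and squares BenSer; the members lie left of 0 except DHODH with GPNA, and CMPK2 lies farthest right at 1.15 and 1.86.

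The same measures are set side by side for 10 genes of replication licensing, which load the DNA helicase before S phase, and 10 genes of purine synthesis. The medians with GPNA were -0.17 and -0.16, beside -0.25 for the 9 members and -0.028 for all genes. Of the 10 intervals in each list, 7 and 9 were below 0 (20.1% of all genes compared). With BenSer the medians were -0.52 and -0.40, beside -0.65 for the members and -0.028 for all genes. There, 10 and 9 of the 10 intervals were below 0 (25.8%). At least 1.5-fold lower with BenSer (1.58%) was 1 licensing gene, MCM2 at -0.68 (-0.76 to -0.60), and no purine gene. Both treatments share the control libraries, so their values are given beside each other and were not related to each other. The part of the cell cycle in these differences was not tested.

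Among 7938 other genes at 10 CPM or more in the control, 5 lay nearest to the members' median pair of differences (-0.25 and -0.65). They were SNRPF, a core protein of the splicing machinery, at -0.24 and -0.65, RPL22L1, a relative of a ribosomal protein, at -0.25 and -0.66, the mitochondrial malic enzyme ME2 at -0.24 and -0.63, the elongation factor EEF1A2 at -0.27 and -0.65, and the intermediate filament gene NES at -0.27 and -0.66. Likeness was the Euclidean distance over these 2 differences, 0.00712 to 0.0260, and rests on 3 groups that share 1 control.

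Some members share bases with genes on the opposite strand, and the strand setting of the counting is not given in the sources used here. ENOSF1 overlaps 967 bases and TYMSOS 295 bases of the canonical TYMS exons (GENCODE annotation on GRCh37). ENOSF1 was at 21.0 and 19.0 CPM in control cells, 17.7 and 19.2 CPM with GPNA, and 16.4 and 16.0 CPM with BenSer, so without strand its reads and those of TYMS could not be told apart there. DUT-AS1 overlaps 367 bases of the DUT exons and RRM1-AS1 63 bases of those of RRM1. The listed processed copies RRM2P3, DUTP2, DUTP6 and DUTP7 stayed at 0 to 0.892 CPM in every library; reads that the counting may have split between them and their parent genes cannot be told apart.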

How the data were processed

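Total RNA of PC-3 cells was extracted with Trizol, and stranded total RNA libraries were sequenced as paired ends. The submitters' processing notes name TopHat2, Bowtie2, HTSeq 0.6.2p2 and DESeq with hg19/GRCh37.p13. The deposited tables head their value columns as counts, but what the authors deposited is CPM, reads of a gene over all reads of its library. Whole reads were recovered for 100% of values, within 1e-06 reads. Log2 fold changes, average log2 CPM, p-values and false discovery rates of the authors' own comparison are also in the tables and were not used. Of 16 value columns in both tables, 8 matched no label and were not analysed here. Control columns appear in both tables and are counted in each, so the 8 need not be 8 separate libraries. These 8 are the remaining columns of the same groups, and the study reports exact tests on 4 replicates per group.

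Libraries 1 and 2 of a group were merged (1 sample). Mean CPM was compared on the log2 scale (pseudocount 1) wherever either group averaged 5 reads or more. At least 1.5-fold was counted as a call. Interval ends of the difference come from exact Clopper-Pearson 95% intervals on merged reads. limma (3.58.1, R 4.3.3; log2(CPM + 1), the test was planned, its variance trend chosen after seeing the data, adjusted p under 0.05 by Benjamini-Hochberg) took the libraries as 2 samples. edgeR (4.0.16) and DESeq2 (1.42.0) on recovered reads were alternatives; edgeR called 1704 genes lower and 1465 higher with GPNA, 3423 and 3597 with BenSer, and 3104 and 3511 with BenSer against GPNA. All 3 and the fold rule were tested on simulated data. The simulated reads varied by read sampling only, and the changed genes differed 2-fold, more than any member. Differences of the members' size were thus not checked in this way. Other alternatives were another pseudocount, no filter, other scalings and folds, single libraries left out and a replicate block. Named genes are the 9 members and their counterparts CTPS2, RRM2B and TK2. Also named are genes of the wider list past 1.5-fold, its 2 lowest and 2 highest, and the 5 nearest in pattern. SHMT1, SHMT2, MTHFD1, DTYMK and MCM2 were named after their values were seen, and the read shares of gene pairs were added then. The members and lists were chosen with earlier results of these data known. NME2, UPP2, DPYS and UPB1 of the wider list were not listed, and single values of 1 other gene of that list and of some cell line markers are not reported here. Transcript lengths and positions come from GENCODE lifted to GRCh37. Scripts used Python 3.11.15, numpy 2.4.6, pandas 2.3.3, scipy 1.17.1 and matplotlib 3.10.9.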

Additional observations from a re-analysis of the deposited data

How the results depend on the processing

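Recomputed differences of single members moved by less than the counting error in 213 cases. The other 3 were all CAD, whose control libraries differ: -0.34 with GPNA without control replicate 2, and -0.57 and -0.43 with BenSer without control replicate 1 and 2. Without single libraries, DHODH (-0.11 to 0.14) and UMPS (-0.16 to 0.018) with GPNA took either sign. The members' median with GPNA was -0.21 with TMM scaling and with DESeq2 size factors, and -0.27 to -0.22 without single libraries. With BenSer it was -0.60 with either scaling, -0.68 with a pseudocount of 0.1, and -0.67 to -0.63 without single libraries, and against GPNA -0.45 to -0.42. The median of all genes moved by less than 0.1 with either scaling. The wider list's median with GPNA turned to 0.0080 with TMM scaling and 0.0069 with DESeq2 size factors.

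At 1.2-fold in place of 1.5-fold, 4 members were lower with GPNA and 7 with BenSer against GPNA, in place of 0, and at 2-fold 0 were lower with BenSer in place of 6. Without single libraries, 0 to 1 member was 1.5-fold lower with BenSer against GPNA, the 1 being TYMS at -0.60 without GPNA replicate 2. A pseudocount of 0.1 took all genes 1.5-fold lower from 12 to 652 with GPNA, from 300 to 1397 with BenSer and from 155 to 1243 between them. With GPNA, BenSer and BenSer against GPNA, limma with a variance trend called 6, 9 and 7 members lower, among 2773, 4132 and 3132 of all genes. Without the trend, a choice also made after seeing the data, it called 3, 7 and 6 members, among 273, 3076 and 2094 genes, DESeq2 5, 7 and 6, among 699, 2021 and 1658, and edgeR 6, 8 and 7, among 1704, 3423 and 3104. With the replicate block, limma called 6, 9 and 7 and edgeR 6, 8 and 7. Library deviations with the same number correlated at 0.095 to 0.11, and with 2 libraries per group the numbers were taken as names only.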
